A study of Mus musculus with 4 samples.

Results

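Immediate early genes are the genes that a cell transcribes first when a signal reaches it, before any new protein is needed. Signals pass through the MAP kinase cascade to the serum response factor and its partners, which sit ready at the promoters of these genes. Their messenger RNAs are short-lived, and several encode AP-1 proteins, pairs of FOS, JUN and ATF proteins that switch on later genes. Enzymes and handling during tissue dissociation are a known stimulus of the same genes, so their RNA is often read as a measure of how a cell suspension was prepared.

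The 10 genes described here were Fos, Fosb, Jun, Junb, Jund, Egr1, Atf3, Ier2, Btg2 and Zfp36, chosen by name from the 27998 genes in the files. Each was found by its Ensembl identifier in all 4 libraries. The rule uses no measured value, but the list was drawn up with earlier results of these data known. The libraries held single cells from the aorta of C57BL/6 mice. Aged descending intima a and aged descending intima b each pooled 6 mice, young arch intima pooled 8 mice, and 1 library came from aged adventitia, for which the number of mice was not given. Sex was not given, "aged" and "young" came from the titles alone, and each library is a pool in which single animals cannot be told apart.

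The FOS family members are Fos (ENSMUSG00000021250; GRCm38 chromosome 12, 85473890 to 85477273, plus strand), which pairs with JUN proteins, and Fosb (chromosome 7, 19302696 to 19310051, minus strand), its relative. The JUN family members are Jun (chromosome 4, 95049034 to 95052222, minus strand), Junb (chromosome 8, 84974484 to 84978718, minus strand) and Jund (chromosome 8, 70698949 to 70700616, plus strand), which form AP-1 with FOS proteins. Jund is the member known for steady expression in resting cells. Egr1 (chromosome 18, 34859823 to 34864984, plus strand) encodes a zinc-finger transcription factor that responds to growth factors and flow. Atf3 (chromosome 1, 191170296 to 191218039, minus strand) encodes a stress-induced factor of the ATF family. Ier2 (chromosome 8, 84661331 to 84662852, minus strand) encodes a nuclear regulator, and Btg2 (chromosome 1, 134075170 to 134079120, minus strand) an antiproliferative protein that recruits deadenylases to RNA. Zfp36 (chromosome 7, 28376784 to 28380253, minus strand) encodes tristetraprolin, which binds AU-rich elements and speeds the decay of short-lived RNAs. No member overlapped another annotated gene on its own strand.

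Per the labels' protocols, the intima was prepared by perfusion with a chelating buffer, removal of the adventitia and opening of the vessel as a sheet. Trypsin was applied for 2 rounds of 5 min at 37 °C. The endothelium was then scraped off in a buffer with serum, which stops trypsin, and actinomycin D at 1 µg/ml, a drug that blocks RNA synthesis. The drug was therefore added after the warm enzyme step, and red cells were lysed afterwards. The labels repeat this text for the adventitia, although it describes the adventitia being removed, so how that library was made is not known. No library without actinomycin D was analysed here, so the effect of the drug on these genes could not be tested, and its presence cannot be told apart from the rest of the preparation.

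The files held 2095 to 2187 barcodes for the intimal libraries and 9347 for the adventitia, with 13181305 to 29370967 unique molecular identifiers (UMIs) each. After filtering, 1988, 2091, 2114 and 7851 cells were analysed for descending a, descending b, arch and adventitia, and values below keep this order. Pairs of libraries shared 4 to 31 barcodes. Cells were clustered without the 10 genes and 8 lists of related genes, 128 genes in all, so that no class was defined by them. Among 31 clusters, endothelial cells numbered 1463, 1285, 1242 and 306, fibroblasts 335, 647, 436 and 1431, and macrophages 82, 70, 115 and 663, each named from marker genes. All 10 endothelial markers were detected in the endothelial class of every library. By the thresholds used for naming, Kdr did not count as a marker in the intimal endothelial clusters, nor Vwf in the main adventitial one. Levels are given as CPM, the UMIs of a gene scaled to the total UMIs of all cells of a class in a library. Since 3′ counting takes 1 UMI per molecule whatever its length, CPM was also used to compare genes.

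Short RNA life is written in the 3′ untranslated region, and 7 of the 10 members carried the AU-rich element TATTTAT there, against 27.5% of 21004 protein-coding genes. They are shown because this element is bound by the product of another member, Zfp36, and bears on how long the RNA would persist once synthesis is blocked. The capitals mark the element, the strand is that of the RNA written as DNA, and the windows come from the GENCODE M21 transcripts on GRCm38.
Fos: gtgttttcaattTATTTATtaagatggatt
Fosb: cccacccccagcTATTTATccctttcctgg
Jun: tttgcttgtgcaTATTTATaatagcgttcg
Jund: ccgattccgcccTATTTATgtttctactcg
Atf3: gaaaatattactTATTTATcccagtattcc
Btg2: aaaatgaagagcTATTTATacatgtttttt
Zfp36: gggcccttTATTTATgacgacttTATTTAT
The Zfp36 window holds 2 of the 3 elements of its untranslated region, a number reached by 1.24% of 2668 genes with an untranslated region of like length. Fos held 2 elements, as many as 4.18% of genes of like length. Junb, Egr1 and Ier2 had no such element, which says only that these letters are absent there. RNA decay was not measured.

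Promoters of 8 members (250 bases before to 50 after the start, from RefSeq on GRCm38.p6) were searched on both strands for 6 motifs, where the GC box can lie within the EGR motif. The starts are those of RefSeq, and match the gene bounds given above only for Jun and Fos. For Btg2, Junb and Fosb the shift was small against the window. It was large for 3 members: the Jund window lies upstream of the Jund gene and does not reach its start, and the Atf3 and Zfp36 windows lie inside their genes. Egr1 and Ier2 had no promoter in the source used and were not searched. Exact matches to classical inputs of immediate early genes were found in a single promoter each. The cAMP response element TGACGTCA lay in the Btg2 promoter, within the window chr1:134079304-134079331 on the minus strand, and in 1.79% of 32851 promoters of the same length. The CArG box, the site of serum response factor, lay in the Zfp36 promoter, within the window chr7:28379267-28379296 on the minus strand, and in 1.63% of promoters. The windows are shown with the motif in capitals.
Btg2: ttcccaataaTGACGTCAgtgagcgatg
Zfp36: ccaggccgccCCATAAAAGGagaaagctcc
The EGR motif GCGNGGGCG was found in Btg2, Fosb and Zfp36 and in 5.55% of all promoters, the GC box GGGCGG in 6 of the 8 and in 35.7%, and TATAAA in Junb and Fos and in 13.6%. The AP-1 motif TGANTCA was in none of the 8 windows and in 7.81% of all. A match describes letters and no binding was measured. Only exact matches inside the windows were counted, so sites with other letters or farther upstream would be missed.

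RNA of the 10 genes was found in all 4 libraries. Summed over the 10 genes and over all cells, it reached 5307 CPM in descending a, 9111 in descending b, 4810 in the arch and 9028 in the adventitia. Fos stood at 552, 1307, 426 and 1722 CPM and Junb at 969, 1793, 830 and 2352 CPM. Jund differed least between the libraries, at 867, 1331, 993 and 964 CPM. Descending b and the adventitia were thus high, and descending a and the arch low, while a and b carry the same label.

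Barcodes that should make no new RNA were used as a rough guide to free RNA in the suspension, which was not measured. Red-cell-like barcodes, whose mature form in the mouse has no nucleus, held 632 CPM of the 10 genes in descending a, 787 in the arch and 1220 in the adventitia. Too few of them were present in descending b. Their median mitochondrial share was 0.420% in descending a, 0.358% in the arch and 3.11% in the adventitia, so they may not be alike across libraries. Every other class lay above that of the same library, and the lowest of them, a dividing-cell cluster of the adventitia led by Pclaf, Cdca3 and Mki67, held 2069 CPM. Thinned to 2000 UMIs per barcode, a Fos UMI was found in 12.2% of red-cell-like barcodes of descending a (95% exact Clopper-Pearson interval 4.08 to 26.2) and in 46.1% of its endothelial cells (43.5 to 48.8). For Atf3 the shares were 2.44% (0.0617 to 12.9) and 4.24% (3.25 to 5.42), so Atf3 in endothelium of descending a was within the interval of the red-cell-like barcodes. Intervals cover counting error only.

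**Figure D1:**
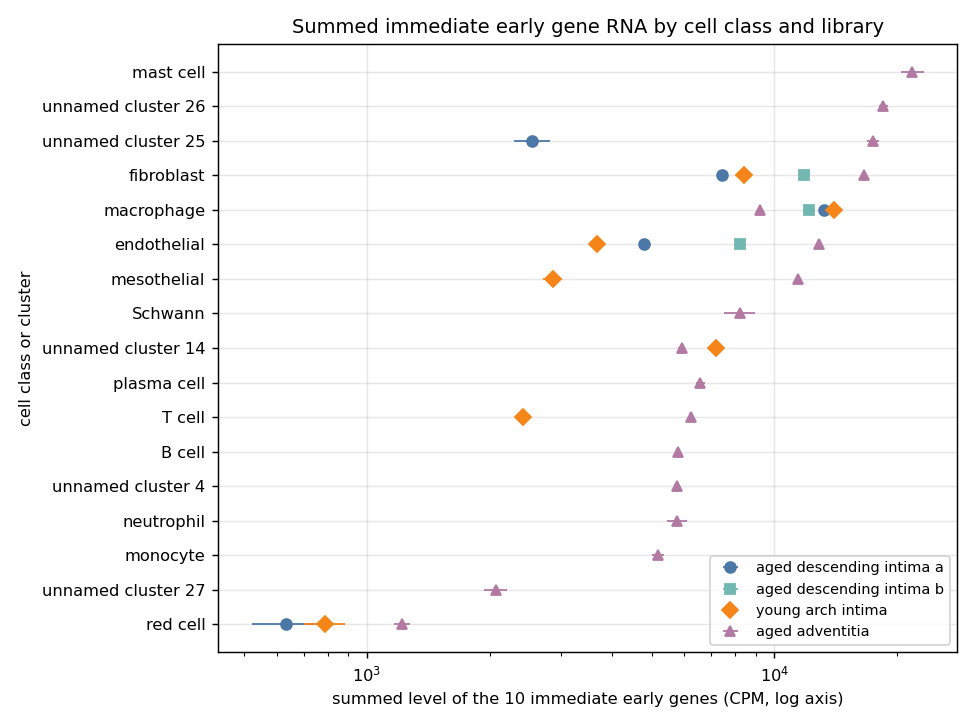
Summed level of the 10 genes (CPM, log axis) in every class or unnamed cluster with at least 20 cells, 1 point per library, with 95% exact Poisson intervals where they exceed the symbol. Red-cell-like barcodes lie lowest, at 632 to 1220 CPM, and intimal macrophages lie at 12158 to 14006 CPM while intimal endothelium spans 3674 to 8237 CPM.

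Among the 3 classes compared within the intima, macrophages carried the most immediate early RNA and endothelium the least. Summed over the 10 genes, macrophages held 13281, 12158 and 14006 CPM in descending a, descending b and arch, fibroblasts 7435, 11832 and 8420 CPM, and endothelial cells 4780, 8237 and 3674 CPM. The order was the same in each of the 3 libraries. In edgeR's quasi-likelihood test with the library as a block, 9 members were higher in macrophages than in endothelium and 0 lower, where 19.5% of 11828 genes were called higher and 22.9% lower. The median log2 fold change of the 10 was 1.57, against -0.17 over all genes. At an unadjusted p under 0.05 the number was also 9, and DESeq2 called 9 higher (20.5% of genes were) and 0 lower (17.2% were).

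Fos was higher in macrophages in every intimal library, at 2525, 2282 and 2531 CPM against 405, 1052 and 165 CPM in endothelium. The groups did not overlap, and the log2 fold change was 2.86 ± 0.37 (SE, n = 3 libraries; edgeR adjusted p = 1.39e-05). Fosb did not share this pattern. It stood at 253, 264 and 197 CPM in macrophages and 175, 452 and 106 CPM in endothelium, where descending b exceeded every macrophage sum (0.49 ± 0.27, edgeR adjusted p = 0.161).

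Among the JUN genes, Junb differed most. It was present at 2701, 2151 and 2380 CPM in macrophages and 841, 1450 and 509 CPM in endothelium, with a log2 fold change of 1.81 ± 0.27 (edgeR adjusted p = 4.79e-05). Jund was higher by 0.94 ± 0.19 (adjusted p = 0.00103) and Jun by 0.67 ± 0.20 (adjusted p = 0.013) in the same test. For Jun the classes overlapped, since endothelium of descending b, at 1373 CPM, exceeded macrophages of all 3 libraries, at 1353, 1083 and 1346 CPM.

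Egr1 was higher in macrophages by 1.34 ± 0.21 (edgeR adjusted p = 8.58e-05), at 665, 1083 and 916 CPM against 401, 719 and 267 CPM. The ranges overlapped, since macrophages of descending a lay below endothelium of descending b, but within each library the macrophages were higher. Atf3 showed the widest gap of the members, with 797, 674 and 1061 CPM in macrophages and 21.1, 41.2 and 41.96 CPM in endothelium. Its log2 fold change was 4.98 ± 0.26 (edgeR adjusted p = 4.59e-10). Red-cell-like barcodes held 5.59 CPM of Atf3, from 1 UMI, in descending a and 18.8 CPM, from 7 UMIs, in the arch, below the endothelial values of the same libraries.

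The effectors Btg2 and Zfp36 were also high in macrophages. Btg2 stood at 941, 804 and 1496 CPM against 268, 337 and 125.5 CPM in endothelium (log2 fold change 2.55 ± 0.34, edgeR adjusted p = 1.69e-05). Zfp36, which in macrophages is known for destroying cytokine mRNA, stood at 953, 1233 and 974 CPM against 237, 495 and 135 CPM (2.37 ± 0.27, edgeR adjusted p = 2.48e-06). Ier2 differed least of the effectors, at 1261, 1197 and 1989 CPM against 850, 1123 and 648 CPM (1.08 ± 0.24, adjusted p = 0.00173), without overlap.

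Fibroblasts lay between these classes for some members and not for others. Compared with endothelium, 6 members were higher (24.0% of genes were) and 1 was lower (23.7% were). The higher members were Atf3 (log2 fold change 2.40 ± 0.24), Fos (1.68 ± 0.35), Egr1 (1.35 ± 0.20), Junb (1.35 ± 0.26), Jund (1.00 ± 0.19) and Ier2 (0.87 ± 0.23). Fosb was the lower member, at 98.2, 151 and 110 CPM in fibroblasts against 175, 452 and 106 CPM in endothelium. The classes overlapped, and the call for Fosb (-0.68 ± 0.25, edgeR adjusted p = 0.0355) rested on the descending libraries: the adjusted p was 0.143 without descending a and 0.428 without descending b. Jun, Btg2 and Zfp36 were not called, with log2 fold changes of -0.27, 0.37 and 0.56.

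Macrophages against fibroblasts gave 6 higher members (17.9% of genes were higher) and 0 lower (20.9% were lower). DESeq2 likewise gave 6 higher (17.5% of genes were) and 0 lower (17.8% were), and 6 members had an unadjusted p under 0.05 in edgeR. Atf3 led with a log2 fold change of 2.58 ± 0.24, followed by Btg2 (2.18 ± 0.33), Zfp36 (1.80 ± 0.26), Fos (1.17 ± 0.35), Fosb (1.17 ± 0.27) and Jun (0.94 ± 0.20). Egr1 (-0.01 ± 0.21), Jund (-0.06 ± 0.19), Ier2 (0.21 ± 0.23) and Junb (0.46 ± 0.26) were not called. With the adventitia added as a 4th library, the calls higher than endothelium became 6 for macrophages and 3 for fibroblasts, where 2224 and 2124 of 12181 genes were called higher. Those of macrophages over fibroblasts became 3, where 2068 genes were called higher.

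**Figure D2:**
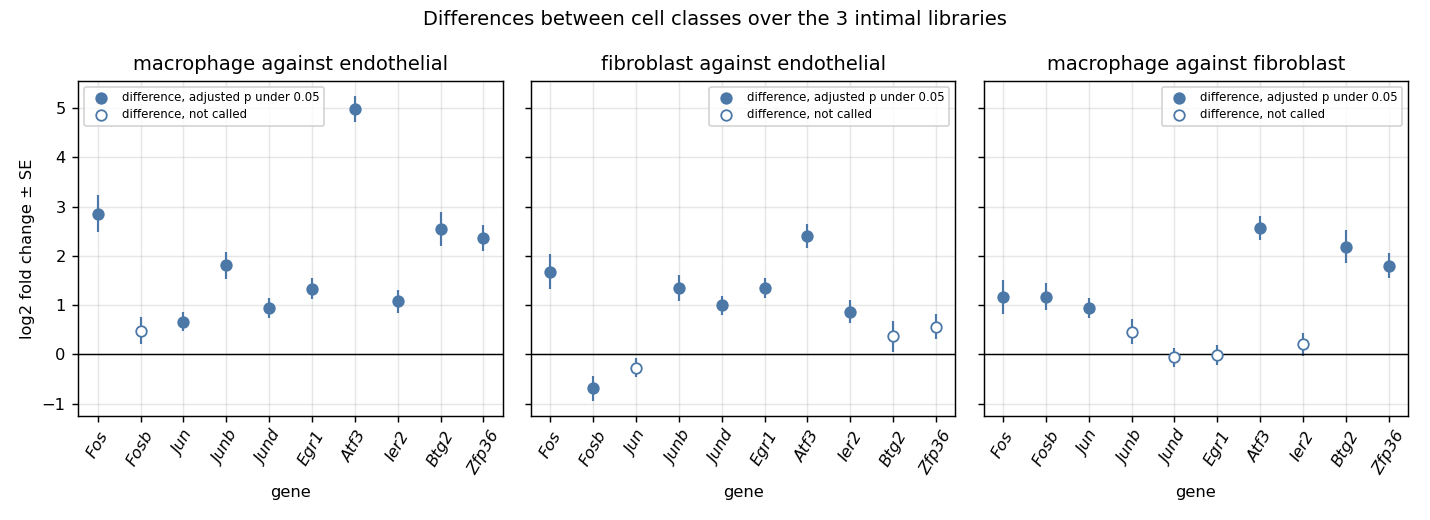
Log2 fold change ± SE of each gene between classes over the 3 intimal libraries, with filled points at an edgeR adjusted p under 0.05. In macrophages against endothelium 9 of 10 points are filled and above 0, and Atf3 lies highest in each panel.

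The intimal macrophages held a Lyve1 type (57, 52 and 40 cells) and an intima resident type marked by Itgax and Mmp12 (25, 18 and 75 cells). Both carried the set at high level, 11440, 12187 and 16266 CPM in the Lyve1 type and 17078, 12081 and 13315 CPM in the intima resident type, with no common order across libraries. Single members did differ. In edgeR with the library as a block, 3 members were higher in the intima resident type (12.8% of 3464 genes were) and 2 lower (13.5% were). Atf3 was higher there, at 1428, 955 and 1131 CPM against 492, 571 and 831 CPM (log2 fold change 0.98 ± 0.21, adjusted p = 0.0023). Btg2 was higher by 0.96 ± 0.20 and Ier2 by 0.74 ± 0.18.

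Fosb and Jund ran the other way in the intima resident type. Fosb stood at 185, 148 and 120 CPM against 286, 307 and 450 CPM in the Lyve1 type, without overlap (log2 fold change -1.24 ± 0.25, edgeR adjusted p = 0.00142). Jund stood at 1569, 721 and 818 CPM against 1958, 1631 and 2093 CPM (-0.86 ± 0.20, adjusted p = 0.00511). Fos, Jun, Junb, Egr1 and Zfp36 were not called, with log2 fold changes between -0.08 and 0.15.

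The 2 descending libraries, which share a label, differed in these genes in endothelium and fibroblasts. In endothelium the 10 members were 1.26 to 2.60 times as high in descending b as in descending a (median ratio 1.76), and 8 exceeded 1.5 times, which 3.37% of 10789 genes did. In fibroblasts the ratios ran from 1.09 to 3.06 (median 1.76), and 7 members exceeded 1.5 times against 4.22% of 7971 genes. In macrophages the ratios ran from 0.757 to 1.63 (median 0.879), and 1 member, Egr1, exceeded 1.5 times against 7.45% of 1878 genes. These counts have no test, since each is 1 library against 1, and the difference between classes was not tested.

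The largest ratio in fibroblasts was that of Zfp36, at 209 CPM in a and 640 CPM in b, and in endothelium that of Fos, at 405 and 1052 CPM. In the endothelial clusters that both libraries filled, the summed level was also higher in descending b. It was 5432 and 8900 CPM in cluster 2, 3854 and 6857 CPM in cluster 7 and 4985 and 8388 CPM in cluster 8. Median UMIs per endothelial cell were 5737 and 5373 and the median mitochondrial share 3.36% and 2.95%, and their part in the difference was not tested. P-values here and below measure only how these pooled libraries vary, and that variation may be technical.

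**Figure D3:**
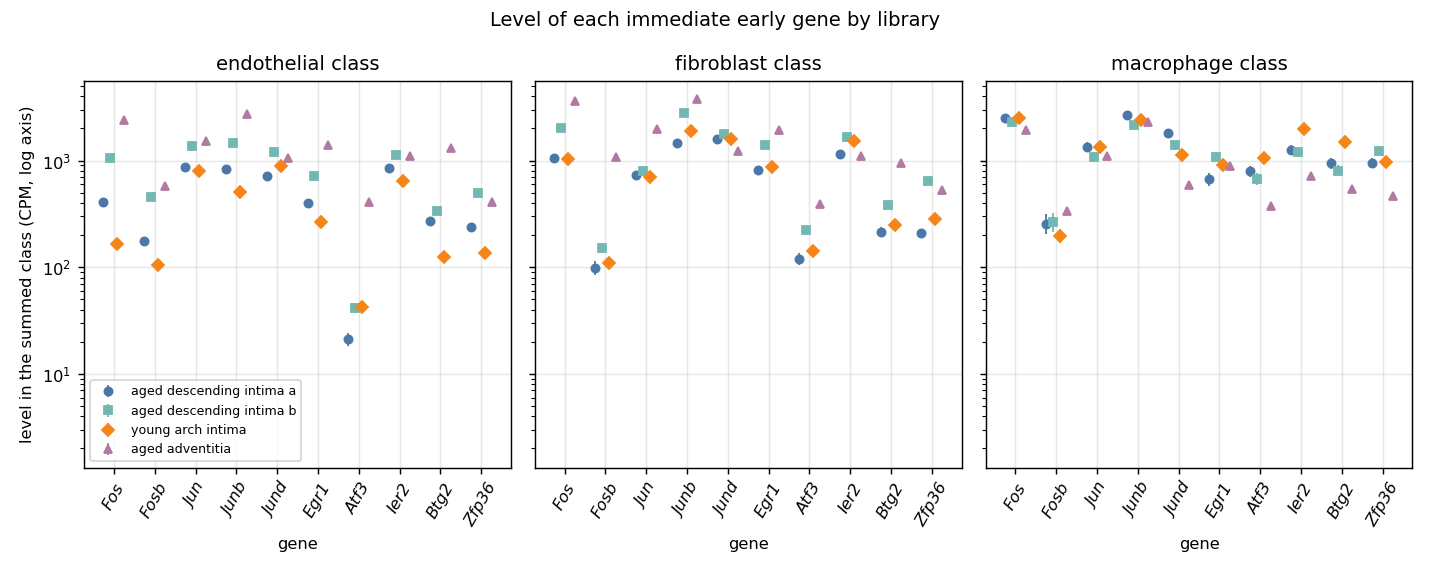
Level of each gene (CPM, log axis) in the summed endothelial, fibroblast and macrophage class of each library, with 95% exact Poisson intervals. In endothelium the arch lies lowest for Fos, Fosb, Jun, Junb, Egr1, Ier2, Btg2 and Zfp36. The adventitia lies highest there for Fos, Fosb, Jun, Junb, Egr1, Atf3 and Btg2, whereas in macrophages the libraries lie close together for Fos and Junb.

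In the young arch, endothelium carried less immediate early RNA than in either descending library for most members. Fos stood at 165 CPM against 405 and 1052 CPM, Btg2 at 125.5 against 268 and 337 CPM, and Zfp36 at 135 against 237 and 495 CPM. Jund, at 886 CPM, lay between the descending values of 713 and 1193 CPM, and Atf3, at 41.96 CPM, was just above 21.1 and 41.2 CPM. Region, age and library cannot be told apart here.

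In edgeR's fit of all 4 endothelial sums, 7 members were lower in the arch (5.51% of 12872 genes were) and 0 higher (6.73% were), with a median log2 fold change of -1.05 against -0.01 over all genes. The fold changes were -2.07 ± 0.25 for Fos, -1.5 ± 0.24 for Fosb, -1.37 ± 0.21 for Zfp36, -1.20 ± 0.18 for Btg2, -1.10 ± 0.20 for Junb, -1.0 ± 0.20 for Egr1 and -0.54 ± 0.17 for Ier2. A total of 9 members had an unadjusted p under 0.05, among them Atf3, which was higher in the arch (0.51 ± 0.19). The fit has 1 residual degree of freedom, from the descending libraries, and assumes that a lone library varies as they do.

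That number depended on how the spread was estimated. By default edgeR moves each gene's spread towards the trend of all genes. With robust estimation, which lets genes of large spread keep their own, 2 members were called lower, Btg2 (adjusted p = 2.76e-07) and Ier2 (adjusted p = 0.033), where 5.22% of genes were. DESeq2 called 1 lower, Btg2 (adjusted p = 0.000678), where 0.614% of genes were, and 0 higher. A fit of the 3 classes together called 3, Fos, Fosb and Btg2, where 3.10% of genes were. Btg2 was lower in each of these, and its log2 fold change was -1.35 with descending b alone and -1.03 with descending a alone. For Fos those values were -2.60 and -1.23.

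Different endothelial clusters held most of the class in the 2 regions: clusters 2, 7 and 8 in the descending libraries, and clusters 6 and 11 in the arch. In the clusters that they shared, most members were still lowest in the arch. The arch lay below both descending libraries for 9 members in cluster 2 (60 arch cells, led by Mal, Nkx2-3 and Gja5), where 50.1% of genes did, for 9 in cluster 6 (582 arch cells, led by Serpina1b and Serpina1d), where 36.0% did, and for 9 in cluster 8 (52 arch cells, led by Coch), where 47.8% did. Fos stood at 247 CPM in arch cells of cluster 2 against 459 and 1178 CPM, at 189 CPM in those of cluster 6 against 611 and 1338 CPM, and at 209 CPM in those of cluster 8 against 394 and 1006 CPM.

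In fibroblasts the arch did not stand apart. No member was called higher (2.35% of 11528 genes were) or lower (1.48% were) by edgeR, DESeq2 also called 0, and 1 member had an unadjusted p under 0.05. Fos was at 1028 CPM against 1053 and 2011 CPM in the descending libraries, and Junb at 1910 CPM against 1449 and 2807 CPM. Log2 fold changes ran from -0.59 for Zfp36 to 0.13 for Ier2.

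In macrophages the direction was upward for a pair of effectors. Btg2 stood at 1496 CPM in the arch against 941 and 804 CPM (log2 fold change 0.87 ± 0.22, edgeR adjusted p = 0.00219), and Ier2 at 1989 CPM against 1261 and 1197 CPM (0.79 ± 0.21, adjusted p = 0.00431). These 2 were called higher (2.70% of 7322 genes were) and 0 lower (2.81% were). At an unadjusted p under 0.05 there were 4, among them Jund, which was lower (-0.43 ± 0.22). DESeq2 called 0 in either direction, and the fit of 3 classes called 0. The intima resident type, in which Btg2 and Ier2 were higher, made up 75 of 115 arch macrophages and 25 of 82 and 18 of 70 descending ones. Within the Lyve1 type alone Ier2 was not called, and the log2 fold change of Btg2 was 1.08. In the cluster of that type, arch cells lay above both descending libraries for 9 members, where 35.7% of genes did.

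**Figure D4:**
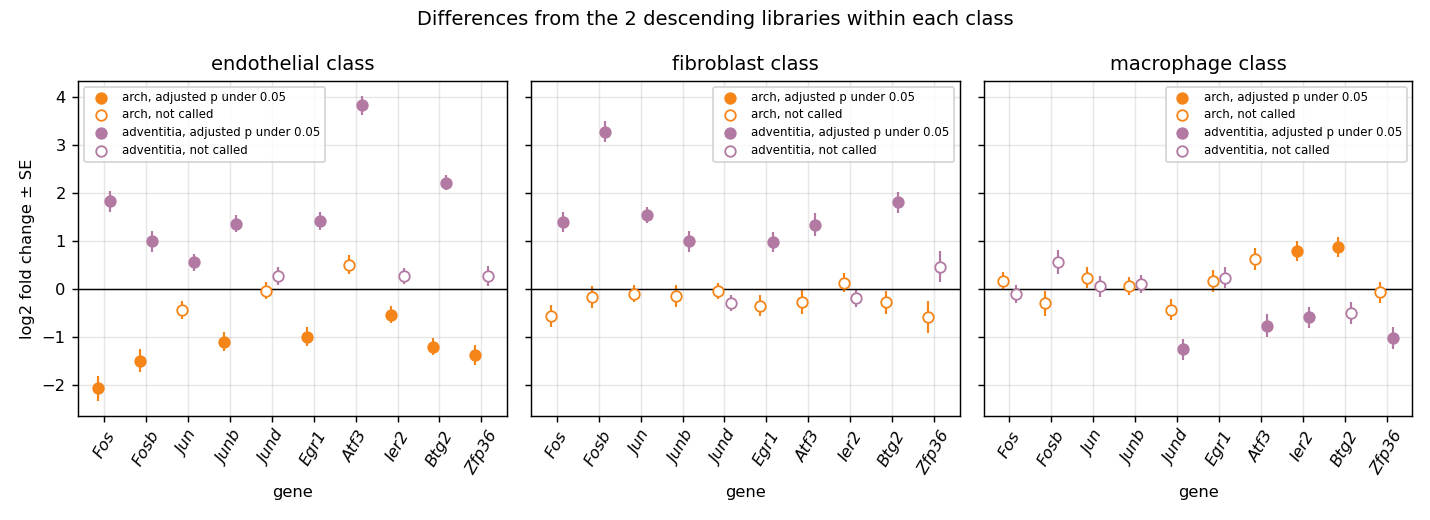
Log2 fold change ± SE of each gene in the arch and in the adventitia against the 2 descending libraries, within 3 classes, with filled points at an edgeR adjusted p under 0.05. In endothelium the arch points lie at or below 0 except Atf3 and the adventitial points above 0, while in macrophages both sets lie between -1.26 and 0.87.

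In the adventitial library the summed level lay above both descending libraries in endothelial cells and fibroblasts and below both in macrophages. How many members passed the test depended on the method. Endothelial Fos stood at 2390 CPM against 405 and 1052 CPM, Btg2 at 1303 against 268 and 337 CPM, and Atf3 at 406 against 21.1 and 41.2 CPM. In edgeR's default fit 7 members were higher (18.3% of 12872 genes were) and 0 lower (18% were), with 7 at an unadjusted p under 0.05. The log2 fold changes were 3.82 ± 0.19 for Atf3, 2.21 ± 0.16 for Btg2, 1.82 ± 0.22 for Fos, 1.42 ± 0.18 for Egr1, 1.36 ± 0.18 for Junb, 0.99 ± 0.22 for Fosb and 0.55 ± 0.18 for Jun. With robust spreads the number was 1, Btg2, where 17.9% of genes were called higher. With DESeq2 it was 2, Btg2 and Atf3, where 9.91% were, and 0 lower. The median over the members was 1.18, and over all genes -0.14.

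The adventitial endothelial cells lay in another cluster than the intimal ones. Of 306, 303 lay in cluster 13, led by Car4, Btnl9 and Gpihbp1, genes of capillary endothelium, and no intimal cell lay there. Under 3 of the other cell filters or clusterings this cluster received no name, which left 2 to 3 adventitial endothelial cells and no comparison. Median UMIs per cell were 2704 against 5737 and 5373, and the median mitochondrial share was 5.09% against 3.36% and 2.95%. The 8 adipocyte markers summed to 34097 CPM against 120 and 99.1 CPM; that list holds Fabp4, which capillary endothelium also makes, and Lep was at 0. The part of these in the difference was not tested.

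Adventitial fibroblasts showed the set at 16643 CPM against 7435 and 11832 CPM. Fosb rose most, at 1090 CPM against 98.2 and 151 CPM (log2 fold change 3.28 ± 0.21, edgeR adjusted p = 9.36e-13). Jun, at 728, 793 and 701 CPM in the intimal libraries, reached 1983 CPM (1.55 ± 0.16, adjusted p = 2.38e-08). A total of 7 members were called higher (14.0% of 11528 genes were) and 0 lower (10.0% were), the others being Btg2 (1.80), Fos (1.39), Atf3 (1.34), Junb (0.99) and Egr1 (0.97), with 7 at an unadjusted p under 0.05. The number was 2, Jun and Fosb, with robust spreads, where 14.1% of genes were called higher, and with DESeq2, where 3.38% were, and DESeq2 called 0 lower. Jund, Ier2 and Zfp36 were not called.

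The summed level also differed between clusters. Adventitial fibroblasts filled clusters 10 (668 cells, led by Cxcl14 and Col15a1) and 12 (549 cells, led by Ptx3, Cxcl13 and Tnfaip6), at 19831 and 14133 CPM summed, where descending b had 3 cells and the other intimal libraries none. The 33 adventitial cells of cluster 1, which held most intimal fibroblasts, carried 7423 CPM against 7450 and 11669 CPM in the descending libraries and 8306 in the arch. In cluster 15, led by Cilp and Angptl1, 181 adventitial cells carried 15397 CPM against 16865 in 20 cells of descending b and 9834 in 46 arch cells. In both shared clusters the adventitial sum was thus not above that of every intimal library, but single members differed. In cluster 1, adventitial Fos, Fosb, Jun and Atf3 lay above both descending libraries, and Junb, Jund, Ier2 and Zfp36 below both. Fosb stood at 386 CPM there against 93.2 and 147 CPM. In cluster 15 it stood at 1072 CPM against 284 in descending b and 250 in the arch, and Jun at 1688 against 1765 and 1303 CPM. Median UMIs per fibroblast were 3396 in the adventitia against 4991 and 4597, the mitochondrial share 3.84% against 2.36% and 2.47%, and the adipocyte markers 4130 CPM against 32.7 and 27.2 CPM. Their part in the difference was not tested.

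**Figure D5:**
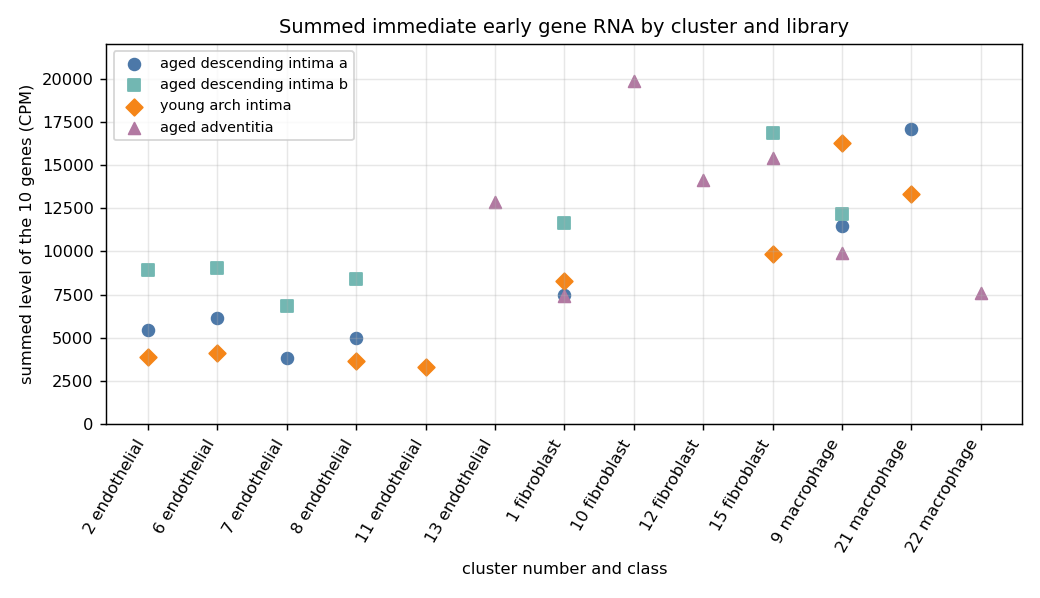
Summed level of the 10 genes (CPM) in each cluster of the endothelial, fibroblast and macrophage classes, 1 point per library with at least 20 cells. Arch points lie below both descending points in endothelial clusters 2, 6 and 8, and the highest fibroblast value, 19831 CPM, belongs to cluster 10, which only the adventitia filled.

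Adventitial macrophages carried 9238 CPM of the set, below the 13281 and 12158 CPM of the descending libraries. In edgeR 4 members were lower (5.64% of 7322 genes were) and 0 higher (7.63% were). At an unadjusted p under 0.05 there were 6, among them Fosb, which was higher (0.56 ± 0.25). Jund fell to 586 CPM from 1831 and 1387 CPM (log2 fold change -1.26 ± 0.22, adjusted p = 6.31e-07), and Zfp36 to 469 CPM from 953 and 1233 CPM (-1.02 ± 0.23, adjusted p = 0.000213). Atf3 (-0.76) and Ier2 (-0.59) were the other members. Fos, at 1951 CPM against 2525 and 2282 CPM, was not called. DESeq2 and the fit of 3 classes each called Jund alone, where 1.11% and 3.13% of genes were lower. DESeq2 called 0 higher, where 1.31% of genes were.

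No adventitial macrophage was assigned to the intima resident type, so the Lyve1 type was compared on its own. In its 551 adventitial cells Atf3 and Ier2 were not called, and the log2 fold changes were -1.19 for Jund and -0.93 for Zfp36. In the cluster of this type the adventitia lay below both descending libraries for 6 members, where 45.0% of genes did. A subcluster of 280 adventitial Lyve1-type cells had Hspa1a and Hspa1b, heat shock genes, among its 10 leading genes, beside Ucp1 and Cfd of the adipocyte list. That list summed to 4387 CPM in adventitial macrophages against 23.0 and 22.7 CPM, and the median mitochondrial share was 5.00% against 3.19% and 3.58%. Their part in the differences was not tested.

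Whether the site differences themselves differed between classes was tested in the fit of 12 sums. The shares of all genes given here are at the adjusted threshold. More genes pass an unadjusted p under 0.05, and their share was not counted. The arch difference of 1 member differed between macrophages and endothelium, Btg2 (2.16 ± 0.38, edgeR adjusted p = 0.0128), where 0.453% of 12815 genes did and 8 members had an unadjusted p under 0.05. That call was lost with DESeq2, with robust spreads and at clustering resolution 2.0, each of which left 0. It differed for 0 members between fibroblasts and endothelium (0.429% of genes) and for 0 between macrophages and fibroblasts (0.281%), with 5 and 2 members at an unadjusted p under 0.05 and 0 in DESeq2. The adventitial difference was compared in the same way after the levels had been seen. It differed between macrophages and endothelium for 3 members (8.51% of genes), between fibroblasts and endothelium for 2 (12%) and between macrophages and fibroblasts for 4 (3.16%). With robust spreads these became 1 (Btg2), 0 and 1 (Jun), where 9.29%, 12.8% and 3.57% of genes were called. In the default fit Atf3 took part in all 3, with the endothelial rise exceeding that of fibroblasts by 2.46 ± 0.47 and the fibroblast value exceeding that of macrophages by 2.00 ± 0.46 on the log2 scale.

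Other classes were present in too few libraries for a test. In the adventitia the set was highest in mast-cell-like cells, at 21844 CPM in 20 cells, where Jun stood at 6007, Fos at 4528 and Ier2 at 3965 CPM while Atf3 stood at 23.5 and Btg2 at 46.9 CPM. The unnamed cluster 26, led by Rgs5, Higd1b and Notch3, followed at 18542 CPM. Other leukocyte classes lay lower: B-cell-like cells held 5802, T-cell-like cells 6243, neutrophil-like cells 5760 and monocyte-like cells 5191 CPM. The T-cell-like clusters differed, with 6091 CPM in cluster 3 (1096 cells), 2701 CPM in cluster 18 (29 cells) and 10795 CPM in cluster 20 (111 cells). In B cells Junb (1996 CPM) and Jund (1189 CPM) exceeded Jun (213 CPM) and Egr1 (167 CPM).

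Of 4 such classes or clusters found both in the adventitia and in 1 intimal library, 3 had the higher sum in the adventitia, each as 1 library against 1. Mesothelial-like cells held 2858 CPM in 44 arch cells and 11457 CPM in 162 adventitial cells, and within them Fos was at 160 and 2392 CPM and Jund at 1410 and 1414 CPM. T-cell-like cells held 2412 CPM in the arch and 6243 CPM in the adventitia, but in different clusters. In cluster 18, led by Dntt and holding most of the arch cells, the sums were 2354 CPM in 157 arch cells and 2701 CPM in 29 adventitial cells. Cluster 25, led by Nts, Mmrn1 and Prox1, held 2542 CPM in 21 cells of descending a and 17466 CPM in 42 adventitial cells. Cluster 14, led by Ear2 and Lyz1, had the lower sum in the adventitia, at 7206 CPM in 31 arch cells and 5925 CPM in 244 adventitial cells.

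Most cells of the 3 main classes held RNA of several of the 10 genes. Thinned to 2000 UMIs, which left out 48, 85, 0 and 78 endothelial cells, an endothelial cell had a mean of 4.74, 6.35, 3.996 and 7.35 of the 10 genes. Fibroblasts had 5.10, 6.56, 5.19 and 7.86, and macrophages 7.22, 7.65, 7.86 and 6.72. Red-cell-like barcodes had 1.07 in descending a, 1.35 in the arch and 1.77 in the adventitia. At least 5 of the genes were found in 53.3%, 81.7%, 37.0% and 89.0% of endothelial cells, and in 88.6%, 95.4%, 96.5% and 85.0% of macrophages. Cells with none made up at most 1.27% of any of these 3 classes.

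Over 24 sums of library and class with at least 50 cells, the members varied together. The Pearson correlation of a member with the mean of the other 9 ran from 0.75 for Atf3 and 0.76 for Jund and Ier2 to 0.94 for Fos. These sums share libraries, 13 of them from the adventitia, and have different depths, so this is a description only. Among the 5 other genes most like the set, of 5596, were Nfkbiz (0.89), Ripk1 (0.88), Zfp36l1 (0.88), a relative of Zfp36, and Dusp1 (0.88), a phosphatase that switches off MAP kinases. Of the 50 most alike, 6 belonged to the related lists, namely Nfkbiz, Zfp36l1, Dusp1, Maff, Klf6 and Nfkbia, and the rest to none of them. The share of listed genes among all 5596 was not counted, so it is not known whether 6 is many.

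Lists of related genes were counted against the shares of all genes given above for each comparison. The list counts come from edgeR's default fits alone and were not recomputed with DESeq2 or robust spreads, under which many calls of the members in the site contrasts were lost. In macrophages against endothelium, where 19.5% of genes were higher and 22.9% lower, 13 of 16 early NF-kB genes were higher and 1 lower, led by Tnf, Il1b, Ccl3 and Ccl4 with log2 fold changes of 7.54 to 8.55, genes that macrophages are known to make. Of 10 MAP kinase phosphatase and Sprouty genes tested, 5 were higher and 2 lower, with Dusp2 at 6.15 and Dusp1 at 2.28. Of 18 genes of the MAP kinase and serum response factor input, 5 were higher and 4 lower. Of 14 heat shock genes, 5 were higher and 5 lower. The other immediate early transcription factors had 5 of 14 higher and 2 lower (median log2 fold change 0.31). AP-1 and ATF partners had 6 of 14 higher and 1 lower (0.17), and other effectors 9 of 18 and 3 (0.81). AU-rich decay factors had 3 of 11 and 2 (0.18). Against fibroblasts, the transcription factors had 6 of 14 higher and 5 lower (-0.30). The partners had 3 of 14 and 1 (-0.002), and the effectors 9 of 18 and 6 (0.83).

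In arch endothelium the related lists held calls in both directions. Of 15 other immediate early transcription factors, 3 were higher and 3 lower, among them Cebpb (-1.63) and Nr4a1 (-1.05), and of 18 other effectors 3 were higher and 4 lower, with Ptgs2, a prostaglandin synthase, at -3.11 and Phlda1 at 1.37. Early NF-kB genes were higher for 5 of 16 and lower for 1, with Cxcl2 at 1.96 and Nfkbiz at -1.14. The median of the other transcription factors was -0.17 and that of the members -1.05.

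In the adventitia 18.3% of genes were higher in endothelium, 14.0% in fibroblasts and 7.63% in macrophages. DESeq2 called 9.91%, 3.38% and 1.31% of genes higher in these classes, and the lists were not recounted under it. The heat shock genes, chaperones induced by warmth and damaged protein, were higher for 13 of 14 in endothelium and lower for 1, for 14 of 14 in fibroblasts, and for 11 of 14 in macrophages. Hspa1b, an inducible HSP70 gene, rose by 4.08 ± 0.20 in endothelium, 3.96 ± 0.26 in fibroblasts and 6.03 ± 0.54 in macrophages on the log2 scale. Other immediate early transcription factors were higher for 11 of 15, 8 of 14 and 6 of 14 in the same classes and lower for 0, 2 and 1, and Nr4a2 rose by 3.67, 3.76 and 4.09. Of 16 early NF-kB genes, 12, 14 and 7 were higher and 0, 0 and 3 lower. Of 11 AU-rich decay factors tested, 4 and 3 were higher in endothelium and fibroblasts, and 1 of 10 in macrophages. Phosphatase and Sprouty genes were higher for 9 of 12, 7 of 12 and 1 of 6. Genes of the MAP kinase and serum response factor input were higher for 3 of 18, 1 of 17 and 0 of 16, and lower for 3, 1 and 2.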

How the data were processed

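Single-cell 3′ libraries (10x, v2 chemistry) were counted with Cell Ranger 2.1.2 on mm10, per the submitters' processing notes. Values are the authors' deposited counts, whole UMIs for each Ensembl gene in each barcode. The annotation release was not given in the sources used here. Identifiers were matched to symbols for 27645 of 27998 genes.

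Barcodes were kept from 200 detected genes upward, with a mitochondrial share of UMIs up to 10%. Scrublet's automatic threshold called 6, 23, 17 and 2 doublets, 0.0235% of the adventitial barcodes, so the highest scores were removed at 0.8% per 1000 barcodes (42, 41, 58 and 646). Cells were clustered jointly without batch correction (scanpy 1.11.5; 2000 variable genes, 30 components, 15 neighbours, leidenalg 0.10.2 at resolution 1.0). Classes were named from marker lists (at least 3 markers), and 5 clusters stayed unnamed. Names describe RNA.

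Counts were summed per library and class and tested with edgeR 4.0.16 (TMM, filterByExpr, glmQLFTest) in R 4.3.3, with Benjamini-Hochberg adjustment over all genes and a threshold of 0.05. DESeq2 1.42.0 was an alternative. Every share of all genes called is at the adjusted threshold. Counts of members at an unadjusted p under 0.05 have no share of all genes beside them and cannot be set against those shares. SE is the fold change divided by the square root of F. The class fit had 4 residual degrees of freedom and the site fits 1. The prior degrees of freedom were 55.3 for endothelium, 26.4 for fibroblasts and infinite for macrophages, whose p-values therefore rest on the pooled spread. The tests were tried on simulated data. Intervals are 95% exact Poisson or Clopper-Pearson. A correlation used log2(CPM + 1) and genes with a mean of at least 20 CPM.

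The members and the gene lists were chosen with earlier results of these data known. All 10 members are named in every comparison. From the related lists up to 4 genes per list were named, those with the lowest adjusted p among those called. Of the 5 genes most like the set, 4 are named, and the other is not reported here.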

Additional observations from a re-analysis of the deposited data

Results flagged for a closer look

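In edgeR's default fit of 12 sums, with 3 residual degrees of freedom, the test of the difference itself called a site difference that depended on the cell class for these members. Values are on the log2 scale and give the site difference of the first class minus that of the second. For the arch, Btg2 gave 2.16 for macrophages minus endothelium, with its level higher in arch macrophages and lower in arch endothelium. For the adventitia, macrophages minus endothelium gave -4.46 for Atf3, -2.60 for Btg2 and -1.41 for Jund. Fibroblasts minus endothelium gave 2.30 for Fosb and -2.46 for Atf3. Macrophages minus fibroblasts gave -2.60 for Fosb, -1.39 for Jun, -2.0 for Atf3 and -2.20 for Btg2. In order, 8.51%, 12% and 3.16% of all genes were called in the adventitial contrasts. With robust spreads the calls left were Btg2 for macrophages minus endothelium and Jun for macrophages minus fibroblasts, and the arch call for Btg2 was lost with DESeq2, robust spreads and resolution 2.0. The adventitial contrasts were added after the levels were seen, and the median over all genes was 0.23, 0.13 and 0.08 in these 3 contrasts. The classes were held by different clusters in the adventitia and in the intima, and the part of this in the differences was not tested.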

How the results depend on the processing

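Of 264 recomputed counts of called members, 221 stayed within 1.5 times the reported count. The 221 include reported counts of 0 that stayed 0, which were not counted apart, so the number says little about the calls above 0. Single fold changes were recomputed 1620 times, and 0 changed sign where called, 102 fell below the threshold and 29 passed it. Another 84 values without a test, those that leave out a descending library, moved by more than 1 SE or changed sign where not called. In the class contrasts, with the adventitia as a 4th library 3 members were higher and 0 lower in fibroblasts against endothelium, and 3 higher in macrophages against fibroblasts. The 1 lower member of fibroblasts against endothelium became 0 with DESeq2, with robust spread and with no library block. Leaving out 1 library gave 7 to 10 higher members for macrophages and 6 to 6 for fibroblasts against endothelium, with 0 to 2 lower in the latter, and 5 to 7 for macrophages against fibroblasts. With 1 library left out, 11154 to 11534 genes were tested. Of these, 1852 to 1867 were higher for macrophages against endothelium, and 1651 to 1753 for macrophages against fibroblasts. For fibroblasts against endothelium, 2025 to 2896 genes were higher and 1952 to 2927 lower. DESeq2 called 1 member lower in the intima resident type, where 6.84% of genes were. Arch endothelium had 3 lower in 1 fit of 3 classes, 1 with DESeq2 and 2 with robust spread, and 1 higher, Atf3, with no low-count filter. Adventitial endothelium had 2 higher with DESeq2 and 1 with robust spread, and adventitial fibroblasts 2 with each, and 1 lower with total UMI scaling. Arch fibroblasts had 1 lower with doublets kept, where 272 of 11636 genes were, and 1 with no filter, where 231 of 16847 were. Arch macrophages had 0 higher in 1 fit, with DESeq2, with no filter and with total UMI scaling, and 1 in the Lyve1 type. Genes called higher there numbered 154 of 12815, 17 of 7322, 0 of 14979, 18 of 7322 and 22 of 4234, in that order. Adventitial macrophages had 1 lower in 1 fit and with DESeq2, 2 in the Lyve1 type and 0 with no filter. Genes called lower there numbered 401 of 12815, 81 of 7322, 253 of 4234 and 1 of 14979. With no filter almost no gene was called in macrophages, so the 0 counts under it say nothing about the members. For differences between classes, the arch value of macrophages minus endothelium became 0 with DESeq2, robust spread and resolution 2.0, and with no filter the arch values were 7, 3 and 1 for macrophages minus endothelium, fibroblasts minus endothelium and macrophages minus fibroblasts. The adventitial values became 7 for each macrophage contrast with no filter, 1, 0 and 1 in the same order with robust spread, and 1 and 1 with DESeq2 for the contrasts with fibroblasts. With no filter, 71, 75 and 50 of 18587 genes were higher and 118, 117 and 67 lower in the 3 arch contrasts. In the adventitial contrasts of macrophages minus endothelium and minus fibroblasts, 700 and 142 were higher and 673 and 450 lower. DESeq2 called 10.4% of genes for fibroblasts minus endothelium and 3.03% for macrophages minus fibroblasts in the adventitia. The cause of these changes was not tested.

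With doublets kept, mitochondrial UMIs up to 5% and resolution 0.5, the site comparisons in endothelium and those between classes were not run, as 2 to 3 adventitial endothelial cells were left. Total UMI scaling moved the median of all genes from -0.17 to -0.49 for macrophages against endothelium and from -0.06 to -0.26 for adventitial macrophages. It turned the called genes from 2303 higher and 2709 lower to 1718 and 4208 for macrophages against endothelium, from 2839 and 2799 to 2272 and 3713 for fibroblasts against endothelium, from 1614 and 1155 to 1240 and 1520 for adventitial fibroblasts, from 559 and 413 to 202 and 260 for adventitial macrophages, and from 198 and 206 to 18 and 35 for arch macrophages. No paired analysis was possible because neither the arch nor the adventitia library carries the letter of a descending library, with which each was compared. Leaving out a descending library leaves the site contrasts with no residual degrees of freedom, so they have a ratio and no test. With 1 library for the arch and 1 for the adventitia, site, age, preparation and library cannot be told apart.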
